A study of Mus musculus with 3072 samples.

Results

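Lysosomal hydrolases and lysosomal membrane genes were examined in single microglia, the resident macrophages of the brain. The set was given as a list of names, with cathepsins left out, and all 31 names have a row among the 29474 genes of the count table. It holds 18 hydrolases, 2 genes for a cofactor or secreted protein (Psap and Grn), 7 genes for membrane proteins, 3 genes for parts or partners of the proton pump and 1 gene for a transcription factor (Tfeb). Lysosomes are acidic compartments in which hydrolases break down proteins, glycans, lipids and engulfed material. A vacuolar proton pump keeps the lumen acidic, heavily glycosylated membrane proteins line its limiting membrane, and TFEB drives many lysosomal genes by binding a palindromic E-box, the CLEAR element. In microglia this compartment receives phagocytosed debris and amyloid, and Cst7, the gene of cystatin F, is a marker of microglia activated around plaques.

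CD11b-positive, DAPI-negative cells of male mice were sorted into wells and read with a modified SmartSeq2 protocol, which sequences along the whole transcript without molecular identifiers. APP/PS1 mice carry APPswe and PS1dE9 transgenes and form plaques, and ApoeKO mice lack Apoe, which encodes apolipoprotein E, a carrier of lipids. In all 1713 cells were used. The groups were C57BL/6 cortex (19.03% of cells), C57BL/6-ApoeKO cortex (18.27% of cells), APP/PS1-ApoeKO cortex (9.87% of cells) and APP/PS1-ApoeKO hippocampus (18.74% of cells), all at 18 months, and APP/PS1 cortex (18.16% of cells) and APP/PS1 hippocampus (15.94% of cells) at 17 months. APP/PS1-ApoeKO mice came from crosses of APP/PS1 with Apoe-null breeders. Groups of APP/PS1 mice aged 18 months are not used here. The labels name no animals, so a group is 1 sample, and Apoe knockout in APP/PS1 mice cannot be told apart from 1 month of age or from the sequencing lanes. Nor can the transgene be told apart from the lanes in either cortex pair, or, with Apoe, from 1 month of age, nor tissue from the lanes in APP/PS1-ApoeKO. Lanes were common to the pair of groups without transgene, and likewise to cortex and hippocampus of APP/PS1. Levels are given as RPM, the depth-scaled read count of a gene in the sum of a group's cells. In such sums, fewer cells with a transcript and less of it per cell cannot be told apart.

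The median cell held 442917 to 765703 reads, depending on the group. Apoe was read at 485 RPM in C57BL/6 cortex and, with the transgenes, at 13406 RPM in cortex and 11919 RPM in hippocampus, and at 0.067 to 2.96 RPM in the 3 knockout groups. The 6 microglial markers summed to between 37612 and 45187 RPM, and all 6 had reads in every group. The 5 T or NK cell markers and the 5 neutrophil markers summed to under 1 RPM in each group, with at most 2 and 3 of them read. The 6 markers of border-associated macrophages summed to 0.4 to 9.5 RPM with Cd163 at or near 0, and the 5 monocyte markers to 3.2 to 28.3 RPM, of which Ccr2 made up most. The 4 oligodendrocyte markers summed to 57.97 to 95.3 RPM. Of these, Mbp was at 29.1 to 50.7 RPM, Mag at 23.2 to 37.4 RPM and Mog at 0. The B cell markers summed to 14.5 to 31.3 RPM, nearly all of it Cd79b, with Ms4a1 at 0. The 4 endothelial or mural markers summed to 5.02 to 28.6 RPM, with Pecam1 at 4.26 to 27.1 RPM and Rgs5 at 0. The 4 astrocyte markers summed to 15.04 to 31.6 RPM and the 4 neuronal markers to 0.11 to 16.5 RPM. Reads are not independent molecules, so the 95% intervals below cover counting error only and leave out the spread between cells and mice.

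As the set is defined by lysosomal function, its promoters were searched for the E-box. RefSeq promoter windows on GRCm38.p6, from 250 bases before to 50 bases after the start site, were at hand for 30 of the 31 genes, all but Asah1. The core CACGTG, which reads the same on both strands, was in the windows of 9 of the 30 genes and of 8.09% of all 27025 gene symbols in the table. The longer TCACGTG, searched on both strands and holding the core, was in the same number of the set (9 of 30) and in 4.29% of all symbols. The full palindrome TCACGTGA was in 4 of 30 genes (13.3%), namely Atp6v0d1, Atp6v1a, Gla and Mcoln1, against 1.12% of all symbols. A match describes letters in a window and shows no binding. The core nearest to the start site of each of the 9 genes is shown with its flanks to let the flanks be compared, 5′ to 3′ on the strand of the gene, with the core in capitals. The positions were Atp6v0d1 at chr8:105566055-105566074 on the minus strand, Lamp1 at chr8:13159139-13159158 on the plus strand, Arsa at chr15:89477428-89477447 on the minus strand, Mcoln1 at chr8:3500467-3500486 on the plus strand, Glb1 at chr9:114401023-114401042 on the plus strand, Naglu at chr11:101070014-101070033 on the plus strand, Atp6v1a at chr16:44139378-44139397 on the minus strand, Gaa at chr11:119267816-119267835 on the plus strand, Gla at chrX:134601187-134601206 on the minus strand.

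Atp6v0d1: ctgcggtCACGTGagacgcg
Lamp1: accacatCACGTGcggaacg
Arsa: tcagtgtCACGTGttgtctg
Mcoln1: ccccgctCACGTGaccgcgg
Glb1: tctgagtCACGTGgcctaca
Naglu: ttcaggtCACGTGgcccgag
Atp6v1a: tttaaatCACGTGataggct
Gaa: gtgcgatCACGTGtttgact
Gla: tctcggtCACGTGagcaact

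The full palindrome TCACGTGA can be read in the windows of Atp6v0d1, Mcoln1, Atp6v1a and Gla. Lamp1 held 4 cores and Mcoln1 and Gla held 2 each. The whole windows of Naglu and Arsb are shown because Naglu was called in both transgene comparisons and Arsb in all 3 knockout comparisons below. The first holds the core, in capitals, and the second holds none. The Naglu window is chr11:101069844-101070143 on the plus strand, and the Arsb window is chr13:93771429-93771728 on the plus strand.

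Naglu: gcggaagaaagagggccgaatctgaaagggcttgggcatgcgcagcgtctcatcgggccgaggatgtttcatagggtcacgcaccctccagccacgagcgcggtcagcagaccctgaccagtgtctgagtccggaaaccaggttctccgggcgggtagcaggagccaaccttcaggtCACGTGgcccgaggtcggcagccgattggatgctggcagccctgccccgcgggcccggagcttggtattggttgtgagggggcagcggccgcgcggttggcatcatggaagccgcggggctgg
Arsb: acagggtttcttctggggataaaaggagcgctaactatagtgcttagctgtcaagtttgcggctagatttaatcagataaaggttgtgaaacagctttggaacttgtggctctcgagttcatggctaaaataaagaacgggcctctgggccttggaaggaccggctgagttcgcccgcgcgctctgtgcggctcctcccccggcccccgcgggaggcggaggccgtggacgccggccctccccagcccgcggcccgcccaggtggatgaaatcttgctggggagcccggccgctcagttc

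The set spanned more than 3 orders of magnitude in level. Per kilobase of exon, on the mean over the 6 groups, Laptm5, a lysosomal membrane protein of blood-lineage cells, stood first at 1493 RPM per kilobase. It was followed by Psap (1103), the precursor of the saposins that help hydrolases reach their lipids, Cd68 (1075), a macrophage membrane glycoprotein, Grn (867), which encodes progranulin, and Hexa (685), the alpha subunit of beta-hexosaminidase. The proton pump genes lay between 13.6 (Atp6v1a) and 172.3 RPM per kilobase (Atp6ap1). Tfeb (3.60), Gla (3.06), the alpha-galactosidase of Fabry disease, and Galc (0.825), the galactosylceramidase of Krabbe disease, stood last. Neighbours in this order could exchange places between groups: Psap was above Cd68 in 4 of 6 groups. The 5 genes with the highest RPM made up 62.6% of the summed level of the set.

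**Figure D1:**
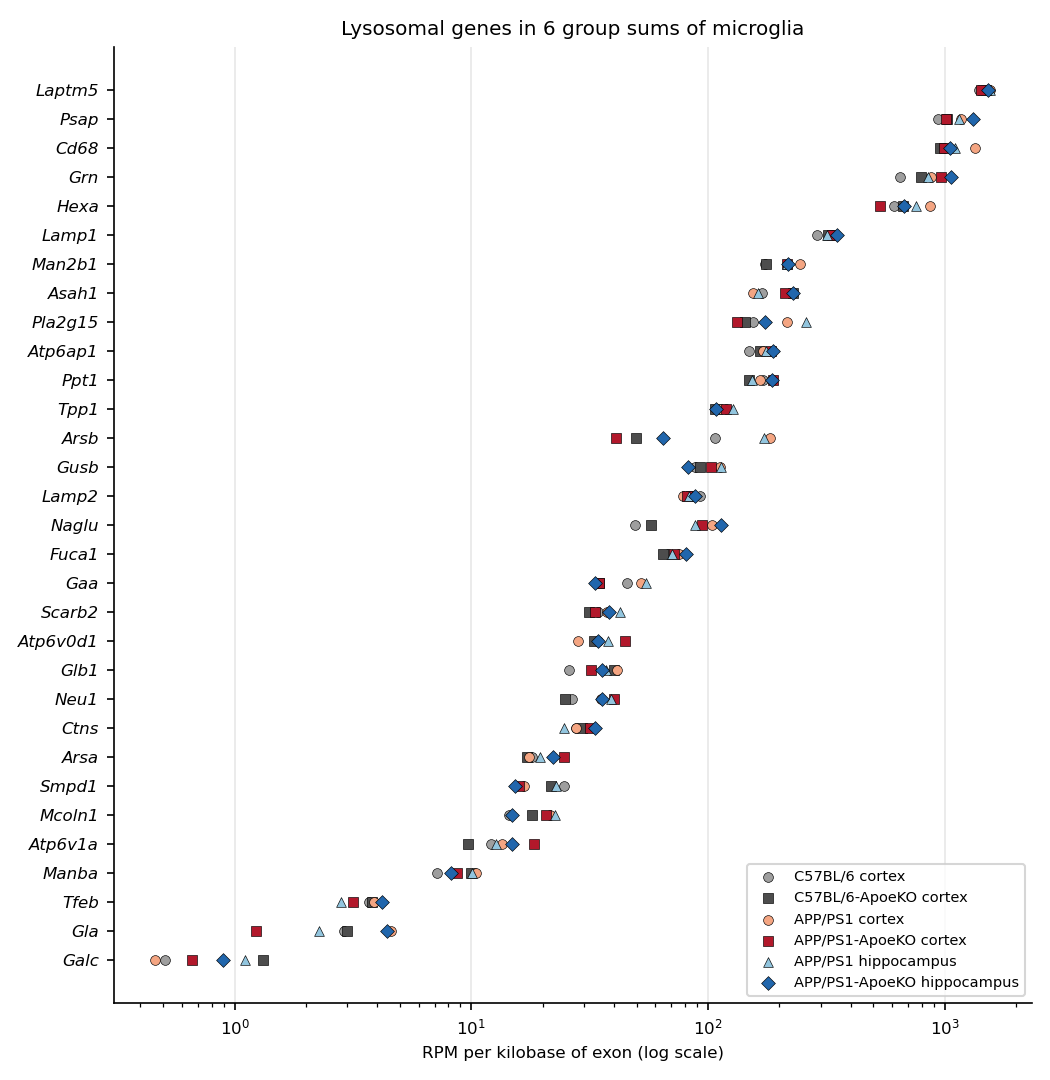
RPM per kilobase of exon (log scale) of each of the 31 genes in the 6 group sums, 1 point per group, ordered by the mean. Laptm5 leads at 1493 RPM per kilobase on average and Galc is last at 0.825, and the 6 points of Arsb spread the widest, over 4.49-fold.

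Across groups most of these levels lay close together. The highest group was less than 1.5 times the lowest for 17 of 31 genes, and the median over the set was 1.48. Laptm5 kept within 1.12-fold, between 5290 RPM in C57BL/6 cortex and 5899 RPM in APP/PS1 cortex. Lamp2 (1.18-fold), a membrane protein needed for autophagosome fusion, Tpp1 (1.19-fold), a tripeptidyl peptidase, and Lamp1 (1.21-fold), the most widely used lysosomal marker, came next. The highest and lowest groups differed by more than 2-fold for 4 genes, Arsb, Gla, Galc and Naglu, of which Gla and Galc were also the lowest in level.

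With each cell thinned to 100000 reads, which left out 8 shallower cells, 14 genes had a read in over 50% of the cells of every group and 4 had one in under 20% of the cells of every group. Laptm5 was read in 99.4% to 100% of cells and Gla in 1.8% to 3.1%. Gla levels thus rested on few cells: its coefficient of variation over single cells, the SD over the mean, was 6.31 to 9.48 against 0.35 to 0.46 for Laptm5. Single cells gave weak coupling within the set, as Spearman's rho over all 465 pairs had medians from 0.027 to 0.066 in the 6 groups. The highest pair per group lay between 0.25 (Grn with Man2b1 in APP/PS1-ApoeKO hippocampus) and 0.45 (Grn with Laptm5 in C57BL/6-ApoeKO cortex). The cells of a group share lanes and each pair shares the depth of a cell, and the counts are sparse, so these are descriptions.

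Arsb, the arylsulfatase that removes sulfate from dermatan and chondroitin sulfate, was lower in the Apoe knockout group of all 3 pairs. The gene lies on chromosome 13 from 93771630 to 93943016 in GRCm38 on the plus strand. Its level was 645 RPM in C57BL/6 cortex and 298.9 RPM in C57BL/6-ApoeKO cortex, a ratio of 0.463 (95% interval 0.459 to 0.468). It was 1106 RPM in the cortex of APP/PS1 and 246.7 RPM in that of APP/PS1-ApoeKO, a ratio of 0.223. In hippocampus it was 1039 RPM in APP/PS1 and 391 RPM in APP/PS1-ApoeKO, a ratio of 0.376. All 3 knockout sums lay below all 3 sums with Apoe, and none of the plates named in the well titles overlapped within a pair. In APP/PS1 cortex the 4 titled plates read 1371, 1041, 1034 and 1022 RPM, and the 2 of APP/PS1-ApoeKO cortex read 308.7 and 189.7 RPM. In C57BL/6 cortex they read 449, 700, 655 and 761 RPM, and in C57BL/6-ApoeKO cortex 299.3, 304.8, 266.9 and 322.8 RPM. Titled plates are technical parts of 1 sample.

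The lower Arsb level was seen within lanes and in both kinds of cell. Within the lanes that C57BL/6 and C57BL/6-ApoeKO shared, the knockout ratio was 0.533 in one and 0.414 in the other. Among cells without a Cst7 read it was -1.04 on the log2 scale in C57BL/6 cortex, -1.97 in APP/PS1 cortex and -1.36 in APP/PS1 hippocampus. Among cells with Cst7 reads it was -1.63, -3.38 and -1.65 in the same order, and the first of these, which rests on 8 C57BL/6 cells, was not called. With further APP/PS1-ApoeKO cortex cells, those from a lane without depth in the labels, the cortex value was -2.23, against -2.16 without them. On thinned cells, an Arsb read was found in 66.9% of C57BL/6, 80.4% of APP/PS1 cortex and 75.4% of APP/PS1 hippocampus cells. The share was 47.3% and 58.3% in the knockout groups with transgene. Without thinning the shares of these groups and of C57BL/6-ApoeKO cortex were 67.5%, 80.7%, 77.3%, 48.5%, 60.1% and 51.1%. Of the 6037 exonic bases of Arsb, 1948 (32.3%) overlap Gm26527, a long noncoding RNA on the opposite strand. How the authors' counting treated strand and overlaps is not stated in the labels or notes at hand, so reads of that stretch may come from either gene, and Gm26527 was not analysed here. A further 463 bases (7.67%) overlap Gm47210 in the same way. Overlaps with annotated genes also touch Lamp1, Hexa, Grn, Arsa, Glb1, Galc and Ppt1, over 1.96% (Grn) to 18.8% (Arsa) of their exonic bases. Hexa overlaps Tmem202, which had at most 1.68 RPM, over 12.8%.

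Over all 3 knockout pairs few other members were called. A gene was called where the sums differed at least 1.5-fold and no titled plates of the pair overlapped, a rule without a p-value. APP/PS1-ApoeKO cortex had 2 titled plates and each other group 4, so the rule is easier to meet in pairs with that group. Counts and shares called are therefore not comparable between pairs. In APP/PS1 cortex 1 member was called higher with knockout, among 14.1% of the 8434 genes with a mean of at least 10 RPM, and 3 were called lower, among 4.53%. In APP/PS1 hippocampus 0 were higher (3.92% of all genes) and 1 was lower (2.12%), and in C57BL/6 cortex 1 was higher (2.47%) and 1 was lower (1.8%). Arsb alone among the members was called in each pair. The median log2 ratio of the set was -0.07, -0.02 and 0.04 in that order, against 0.19, 0.06 and 0.04 over all genes.

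Of the other hydrolases, Gaa, the acid alpha-glucosidase that digests lysosomal glycogen, had a lower sum in each knockout group but overlapping plates. It was read at 217.5 RPM in C57BL/6 cortex and, with the transgenes, at 249.6 RPM in cortex and 262.7 RPM in hippocampus. The knockout groups had 165.7, 165.2 and 159.8 RPM in the same order, ratios of 0.762, 0.662 and 0.608. Asah1, the acid ceramidase, went the other way. Its levels were 571, 523 and 552 RPM with Apoe and 775, 714 and 777 RPM in the knockout groups, ratios of 1.36, 1.37 and 1.41. All 3 knockout sums of Asah1 lay above all 3 others, while titled plates overlapped in APP/PS1 cortex and the ratios stayed under the 1.5-fold limit. Pla2g15, a lysosomal phospholipase, was called lower in APP/PS1 cortex alone, at 401 RPM against 652 RPM, a ratio of 0.615. The ratio was 0.677 in hippocampus and 0.930 in C57BL/6 cortex. Hexa was called lower in APP/PS1 cortex as well, at 1068 RPM against 1734 RPM, a ratio of 0.616. It was at 0.887 in hippocampus and at 1.09 in C57BL/6 cortex, and the call was lost among cells without Cst7 reads (-0.49 on the log2 scale).

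Atp6v0d1, a subunit of the membrane sector of the pump, was the member called higher in APP/PS1-ApoeKO cortex, at 79.9 RPM against 50.5 RPM. It was not called after scaling by TMM, which moved the median of all genes in that pair from 0.19 to -0.06. Nor was it called with the cells of the further lane, among cells with Cst7 reads alone or without 1 titled plate of APP/PS1 cortex. Galc was the member called higher in C57BL/6-ApoeKO cortex, at 19.6 RPM against 7.58 RPM, and it was not called on the mean over cells or among cells with Cst7 reads alone. Grn, whose product supports lysosomal enzymes and is cut into granulins there, had knockout ratios of 1.23 in C57BL/6 cortex, 1.102 in APP/PS1 cortex and 1.249 in APP/PS1 hippocampus. Its plates overlapped except in APP/PS1 cortex.

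**Figure D2:**
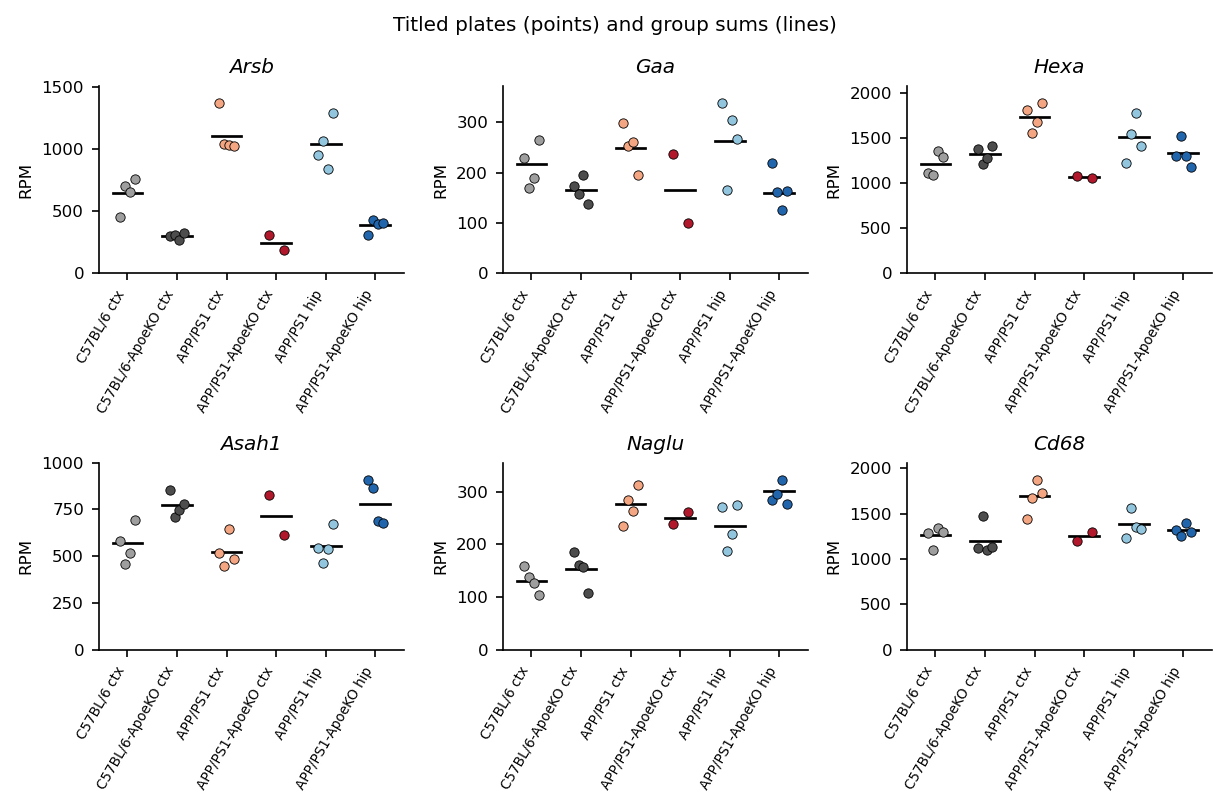
RPM of Arsb, Gaa, Hexa, Asah1, Naglu and Cd68 by group, with 1 point per titled plate (4 per group, 2 for APP/PS1-ApoeKO cortex) and a line for the group sum. The Arsb points of each knockout group lie below those of the matching group with Apoe, while the points of Gaa overlap.

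A test across all genes was possible by fitting the 6 sums with Apoe knockout, transgene and tissue as additive terms, which leaves 2 residual degrees of freedom. By edgeR's quasi-likelihood test with Benjamini-Hochberg adjustment over 18171 genes, 0 of 31 members passed an adjusted p of 0.05 for Apoe knockout, for the transgene or for hippocampus. Over all genes 0.011% were higher and 0.0165% lower for knockout, and none passed for the other terms. At an unadjusted p under 0.05, 1 member was higher and 3 were lower for knockout (3.71% and 3.9% of all genes), 3 were higher and 0 lower for the transgene (2.09% and 2.36%) and 0 passed for hippocampus (1.92% and 1.23%). The knockout estimate was -1.68 ± 0.27 (log2, SE) for Arsb with an adjusted p of 0.393 by edgeR. It was -0.69 ± 0.14 for Gaa (adjusted p 0.528), -0.58 ± 0.18 for Pla2g15 (adjusted p 0.631) and 0.34 ± 0.11 for Asah1 (adjusted p 0.631). DESeq2 on the same sums called these 4 genes for knockout, where it called 2.77% of all genes higher and 2.43% lower. Its adjusted p was 3.88e-12 for Arsb, 0.000427 for Gaa, 0.0187 for Pla2g15 and 0.0252 for Asah1.

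Naglu, the glucosaminidase that degrades heparan sulfate, was higher in both transgenic cortex groups than in the groups without transgene, which were on other lanes and, with Apoe, 1 month older. The gene lies on chromosome 11 from 101070012 to 101077672 in GRCm38. Its level was 130.2 RPM in C57BL/6 cortex and 275.6 RPM in APP/PS1 cortex, a ratio of 2.12 (95% interval 2.09 to 2.15). It was 152.3 RPM in C57BL/6-ApoeKO cortex and 250.4 RPM in APP/PS1-ApoeKO cortex, a ratio of 1.64 (1.61 to 1.67). The hippocampal levels were 234.6 RPM with Apoe and 300.2 RPM without it. The titled plates of C57BL/6 cortex read 158.5, 138.7, 126.4 and 103.4 RPM and those of APP/PS1 cortex 234.6, 284.7, 263.1 and 312.8 RPM, without overlap. Among cells without Cst7 reads the log2 ratio was 0.83 and the plates overlapped. The call in the knockout pair was lost without 1 titled plate of C57BL/6-ApoeKO cortex (0.57) and among cells with Cst7 reads alone. On thinned cells a Naglu read was found in 26.99% and 26.6% of cells without the transgene and in 43.9% to 44.9% of cells of the 4 transgenic groups.

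In the cortex with Apoe, 2 members were called higher with the transgene, Naglu and Arsb (2.48% of all genes), and 0 lower (4.08%). Arsb was at 645 and 1106 RPM, a ratio of 1.71, and was not called in the knockout pair, at 298.9 and 246.7 RPM. In that knockout pair 2 members were called higher (7.29% of all genes) and 1 lower (3.84%). The former were Naglu and Atp6v1a, the catalytic subunit of the pump, at 58.6 RPM in C57BL/6-ApoeKO and 110.997 RPM in APP/PS1-ApoeKO cortex. The latter was Galc, at 19.6 and 9.84 RPM. Neither Atp6v1a nor Galc was called with the cells of the further lane, and Atp6v1a was not called among cells without Cst7 reads. The Galc call was also lost on the mean over cells, among cells with Cst7 reads alone and without 1 titled plate of APP/PS1-ApoeKO cortex. The median log2 ratio of the set was 0.20 with Apoe, where 23 of 31 genes had a ratio above 1 and all genes had a median of -0.10, and 0.06 in the knockout pair, as over all genes (0.06). Whether the pairs differ was not tested.

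Other abundant members lay within 1.5-fold of C57BL/6 cortex in APP/PS1 cortex, some lower and some higher. Lamp2 was at 747 RPM in APP/PS1 and 882 RPM in C57BL/6, Asah1 at 523 and 571 RPM, Ppt1 at 609 and 629 RPM and Tpp1 at 586 and 613 RPM. In the other direction, Cd68 was read at 1262 RPM in C57BL/6 and 1691 RPM in APP/PS1 cortex, a ratio of 1.34, against 1197 and 1251 RPM in the knockout pair, a ratio of 1.05. Man2b1, the lysosomal alpha-mannosidase, had ratios of 1.41 and 1.23. Grn had ratios of 1.35 and 1.21. Neu1, the sialidase, had ratios of 1.33 and 1.60, and its titled plates overlapped in both pairs. By edgeR's quasi-likelihood test on the 6 sums the transgene estimate was 0.93 ± 0.22 (log2, SE) for Naglu, 0.56 ± 0.15 for Neu1 and 0.41 ± 0.15 for Man2b1, each with an adjusted p of 0.917. DESeq2 called Naglu alone among the members, at an adjusted p of 0.00198, where it called 0.842% of all genes higher and 0.914% lower.

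Between tissues 0 members were called in either line. The calls over all genes were 1.4% higher and 1.4% lower for APP/PS1 hippocampus against cortex, and 3.36% and 7.41% for APP/PS1-ApoeKO. The median log2 ratio of the set was -0.03 and 0.08, against 0.01 and -0.11 over all genes. In APP/PS1, whose tissues shared lanes, the median was -0.04 within one lane, where 0 members were called, and 0.03 within the other, where 2 were called higher. The share of all genes called within a lane was not computed.

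**Figure D3:**
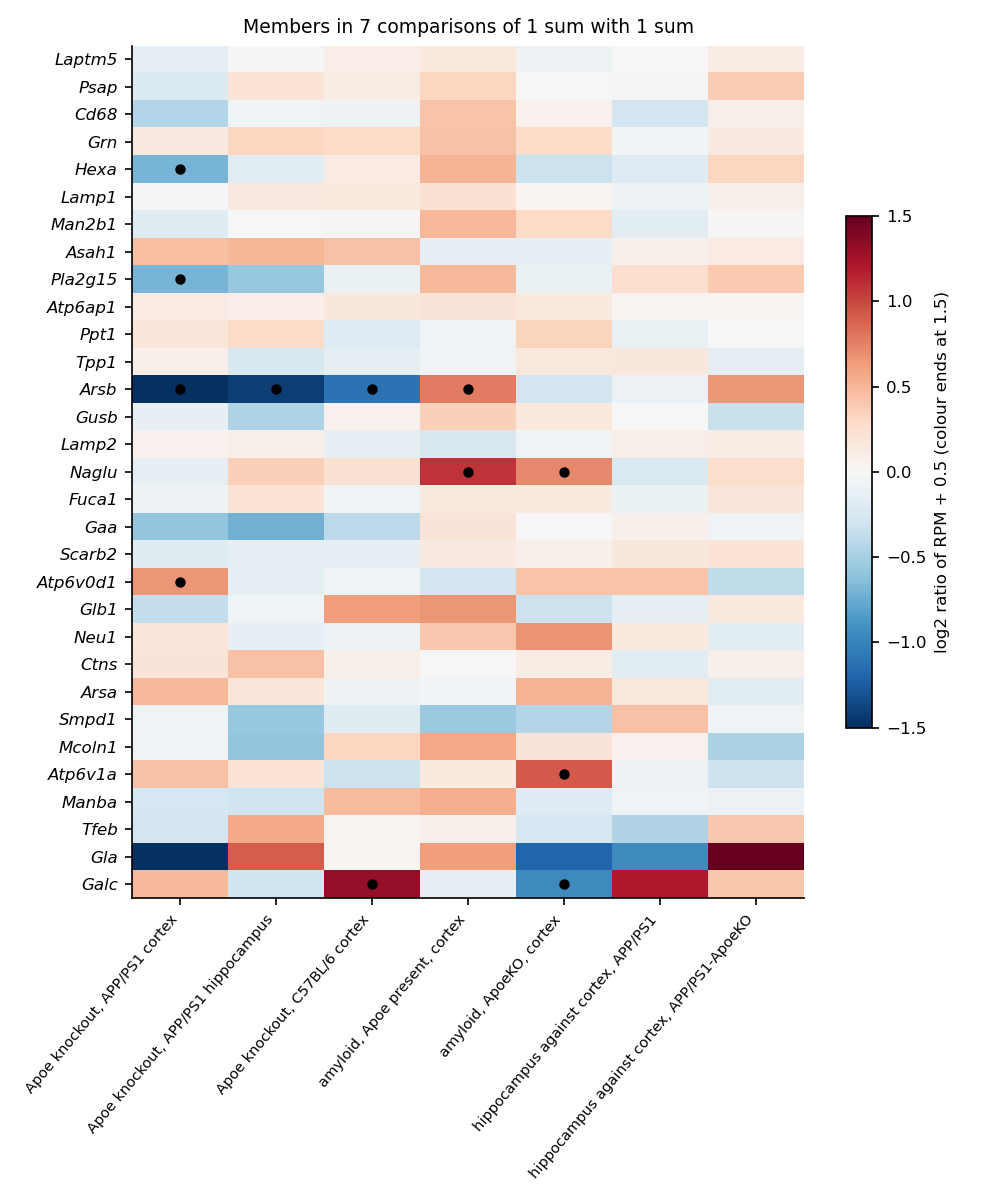
Log2 ratio of RPM (0.5 RPM added) of each gene in the 7 comparisons of 1 sum with 1 sum, red where the first named state was higher, with a dot where the pair was called (at least 1.5-fold and titled plates apart). Arsb is blue and called in the 3 knockout columns, and Naglu is red and called in both amyloid columns.

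The set was next compared between cells with and without Cst7 reads. A Cst7 read was found in 8 cells of C57BL/6 cortex (2.45%), 39 of C57BL/6-ApoeKO cortex (12.5%), 81 of APP/PS1 cortex (26.05%), 25 of APP/PS1-ApoeKO cortex (14.8%), 35 of APP/PS1 hippocampus (12.8%) and 38 of APP/PS1-ApoeKO hippocampus (11.8%). The exact binomial 95% interval was 1.07% to 4.78% for the lowest of these shares and 21.3% to 31.3% for the highest, and after thinning the shares were 2.45% to 25.1%. Apart from Cst7 itself, the 10 other markers of activated microglia summed to 5478 RPM with and 2103 RPM without Cst7 reads in APP/PS1 cortex and to 3430 and 1589 RPM in APP/PS1 hippocampus. The sums were 2726 and 2306 RPM in APP/PS1-ApoeKO cortex, 3254 and 2208 RPM in APP/PS1-ApoeKO hippocampus, 2274 and 1672 RPM in C57BL/6-ApoeKO cortex, and 1454 and 1432 RPM in C57BL/6 cortex. Cd9 alone made up most of each sum with Cst7 reads, at 981 to 2950 RPM. In both APP/PS1 tissues each of the 10 was higher in Cst7-positive cells than over all cells. Elsewhere some were lower than over all cells. Itgax was at 3.04 against 13.03 RPM in APP/PS1-ApoeKO cortex, and Cd9 at 981 against 1249 RPM in C57BL/6 cortex. Median reads per cell with Cst7 lay between 454624 and 730653 and those without between 442603 and 771371. The macrophage markers summed to 51.6 RPM in the Cst7-positive cells of C57BL/6-ApoeKO cortex, 45.03 RPM of it Mrc1, and to at most 9.65 RPM in the other 5 groups. The astrocyte markers summed to 81.6 RPM with and 10.3 RPM without Cst7 reads in APP/PS1-ApoeKO cortex and to 85.7 and 14.7 RPM in C57BL/6 cortex, and to 16.2 to 40.01 RPM with and 10.7 to 34.02 RPM without in the other groups. Oligodendrocyte markers summed to 0.55 to 121.7 RPM with and 63.9 to 91.2 RPM without, endothelial or mural markers to 0 to 39.8 and 4.94 to 28.9 RPM, B cell markers to 0 to 31.2 and 15.9 to 31.5 RPM, monocyte markers to 0 to 26.3 and 2.72 to 28.7 RPM, and neuronal markers to 0 to 14.1 and 0.0947 to 19.1 RPM. The microglial markers were lower with Cst7 in each group, at 32801 to 42149 RPM against 39210 to 45614 RPM. The part of these lists in the results on Cst7 was not tested.

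In the sums, the 31 genes together made up a higher share of reads in cells with Cst7 reads in all 6 groups. For the median cell this held in 5 of 6, as in APP/PS1-ApoeKO hippocampus it was 2.38% with and 2.40% without. In APP/PS1 cortex the share was 3.01% with and 2.39% without, and in APP/PS1 hippocampus 3.19% and 2.37%. It was 2.56% and 2.22% in APP/PS1-ApoeKO cortex, 2.75% and 2.47% in APP/PS1-ApoeKO hippocampus, 2.27% and 2.18% in C57BL/6-ApoeKO cortex and 2.28% and 2.09% in C57BL/6 cortex. The gap was widest in the 2 groups with transgene and Apoe, and whether the gaps differ was not tested. In APP/PS1 hippocampus the share was 3.01% in the 23 cells with above 100 to 1000 RPM of Cst7 and 3.82% in the 10 cells above 1000 RPM. In APP/PS1 cortex it was 3.01% in 41 and 3.16% in 31 such cells, and in APP/PS1-ApoeKO cortex 2.61% in 18 and 2.55% in 4. The bin from above 0 to 100 RPM, with 1 to 9 cells a group, lay below the cells without Cst7 in 5 of 6 groups, for example at 2.32% in APP/PS1 cortex, and at 2.22% in both in APP/PS1-ApoeKO cortex. Above 1000 RPM the C57BL/6-ApoeKO cortex and APP/PS1-ApoeKO hippocampus groups held 4 and 3 cells, and C57BL/6 cortex held none.

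**Figure D4:**
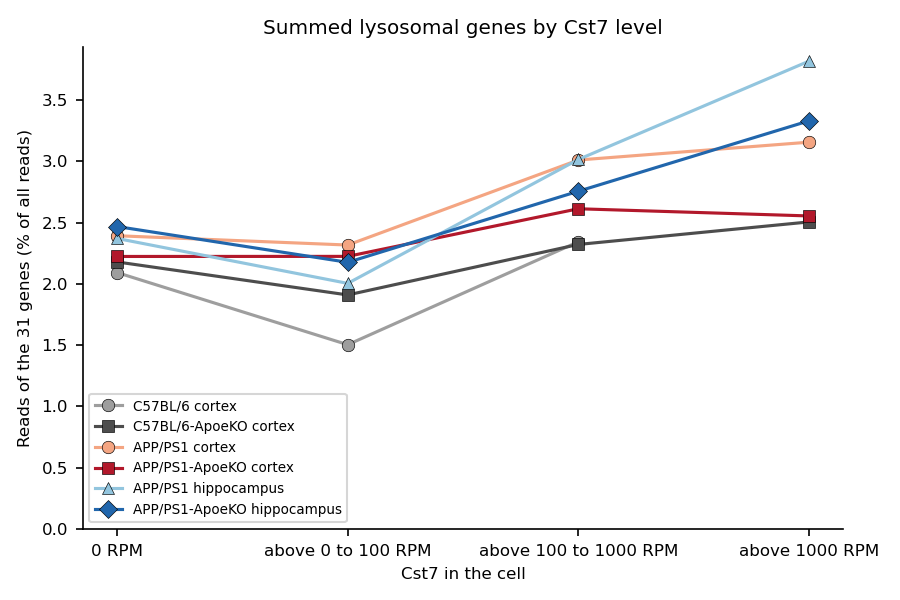
Share of all reads taken by the 31 genes (y axis, %) by the Cst7 level of the cell (x axis), 1 line per group. In APP/PS1 hippocampus the share is 2.37% without Cst7 and 3.82% above 1000 RPM (10 cells), and bins of fewer than 20 cells, such as all bins from above 0 to 100 RPM, are thinly filled.

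Gene by gene, the median log2 ratio of the set was 0.29 in APP/PS1 cortex, 0.30 in APP/PS1 hippocampus, 0.15 in APP/PS1-ApoeKO cortex, 0.18 in APP/PS1-ApoeKO hippocampus, 0.13 in C57BL/6-ApoeKO cortex and -0.05 in C57BL/6 cortex. Over all 8433 genes with at least 10 RPM the median was below 0 in every group, from -0.84 to -0.11. Among genes with a mean of at least 100 RPM, 22 of them members, the set had 0.32 and 0.41 in APP/PS1 cortex and hippocampus against -0.14 and -0.24 over all 1494 such genes. It had 0.22 and 0.18 in APP/PS1-ApoeKO cortex and hippocampus against -0.05 and -0.06, 0.11 in C57BL/6-ApoeKO cortex against -0.06, and -0.07 in C57BL/6 cortex against -0.11.

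Of the 31 genes, 5 were higher with Cst7 in all 6 groups (1.54% of genes with at least 10 RPM) and 1 was lower in all 6 (6.65%). Within the level of at least 100 RPM the counts were 3 of 22 higher (4.82%) and 1 lower (8.23%). The 5 were Cd68, Grn, Atp6v1a, Atp6ap1 and Galc. Atp6ap1, an accessory protein of the pump, was at 1.00 in C57BL/6-ApoeKO cortex and at most at 1.28. The 1 lower gene was Pla2g15, with ratios from 0.611 to 0.925.

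Cd68 was higher in cells with Cst7 in every group. It was read at 2499 RPM in cells with and 1391 RPM in cells without Cst7 in APP/PS1 cortex, a ratio of 1.80, and at 2206 and 1254 RPM in APP/PS1 hippocampus, a ratio of 1.76. In APP/PS1-ApoeKO it was at 1524 and 1203 RPM in cortex and at 1870 and 1250 RPM in hippocampus, ratios of 1.27 and 1.496. In the cortex without the transgene it was at 1377 and 1169 RPM in C57BL/6-ApoeKO and 1673 and 1252 RPM in C57BL/6, ratios of 1.18 and 1.34. Cells without Cst7 had similar Cd68 levels in all groups, between 1169 and 1391 RPM.

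Grn was the most even, with ratios of 1.31 in both APP/PS1 tissues, 1.25 in both APP/PS1-ApoeKO tissues, 1.097 in C57BL/6-ApoeKO and 1.19 in C57BL/6 cortex. Atp6v1a went from 60.8 to 138.2 RPM in APP/PS1 cortex and from 82.7 to 271.96 RPM in APP/PS1-ApoeKO cortex, ratios of 2.27 and 3.29, but was read in only 12 of the 25 Cst7-positive cells of the latter. Galc had ratios from 1.59 to 4.61 on levels of 12.8 to 32.3 RPM with and 4.68 to 17.7 RPM without Cst7. Its highest ratio, in C57BL/6 cortex, rested on 2 of 8 cells. Hexa and Gusb, the beta-glucuronidase, were higher with Cst7 in every group but C57BL/6 cortex. The ratio of Hexa was 1.79 and 2.05 in APP/PS1 cortex and hippocampus and 1.33 and 1.14 in APP/PS1-ApoeKO.

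Asah1, Lamp1, Lamp2, Ppt1, a thioesterase that removes palmitate, and Scarb2, the receptor that carries beta-glucocerebrosidase to lysosomes, were higher in 5 of 6 groups. In this way 12 of 31 genes were higher in at least 5, and the share of all genes meeting that rule was not computed. In single groups, 9 to 17 of the 22 members with at least 100 RPM were higher, against 33.5% to 47.3% of all such genes. Apart from Pla2g15, the members outside these 12 varied in direction. Psap lay between 0.945 and 1.55, Man2b1 between 0.950 and 1.67 and Naglu between 0.893 and 2.07. Ctns, the cystine transporter, Mcoln1, a lysosomal cation channel, Manba, the beta-mannosidase, and Atp6v0d1 were higher in 2 of 6 groups each. Glb1, the lysosomal beta-galactosidase, was at 2.295 and 3.15 in APP/PS1 cortex and hippocampus and at 0.323 and 0.615 in APP/PS1-ApoeKO. Smpd1, the acid sphingomyelinase, lay at 0.694 in APP/PS1 cortex and 2.35 in APP/PS1-ApoeKO hippocampus. Neither had a read in the 8 Cst7-positive cells of C57BL/6 cortex. Laptm5 stayed between 0.85 and 1.16, and Arsb between 0.45 and 1.29. Tfeb was below 1 in 4 of 6 groups, at 0.45 in APP/PS1 cortex, and at 8.94 in C57BL/6 cortex, where 4 of 8 cells with Cst7 had a read. The 9 genes with an E-box core in the promoter window had a median of 1.02 for the median ratio over groups, and the 21 without it had 1.105. These sets also differed in level, with medians of 106.4 and 542.9 RPM, and the difference in ratio was not tested.

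**Figure D5:**
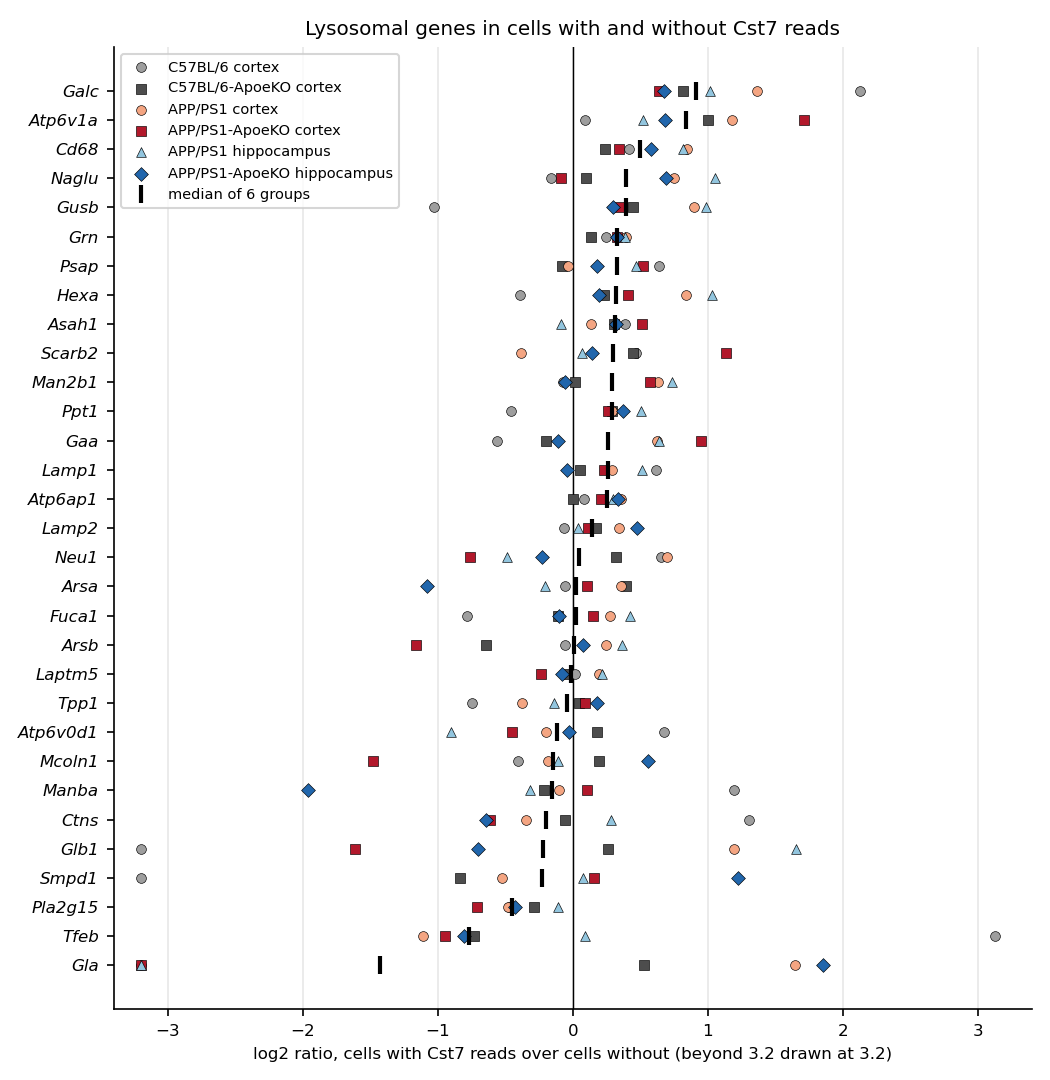
Log2 ratio of RPM between cells with and without Cst7 reads for each gene, 1 point per group and a bar for the median of the 6 groups, ordered by that median. All 6 points of Cd68 and Grn lie above 0 and all 6 of Pla2g15 below it, while low genes such as Gla and Tfeb scatter widely. Points beyond 3.2 are drawn at 3.2, among them the groups with no read in cells with Cst7.

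The pairing of both cell states within each group allowed a test over 6 pairs of sums, with the group as a block. By edgeR's quasi-likelihood test, 0 of 31 members passed an adjusted p of 0.05 over 17285 genes, of which 0.00579% were higher and none was lower. At an unadjusted p under 0.05, 8 members were higher (1.01% of all genes) and 1 was lower (12.2%). The counts were 13 and 0 with RLE scaling, 13 and 0 without C57BL/6 cortex, and 6 or 7 and 0 or 1 without another group, except 8 and 1 without C57BL/6-ApoeKO cortex. The estimate was 0.36 ± 0.07 (log2, SE) for Grn and 0.60 ± 0.12 for Cd68, both with an adjusted p of 0.377 by edgeR. It was 0.34 ± 0.10 for Psap, 0.32 ± 0.09 for Asah1, 0.33 ± 0.11 for Lamp1, 0.36 ± 0.16 for Man2b1, 0.27 ± 0.12 for Atp6ap1 and 0.93 ± 0.28 for Atp6v1a, and -0.36 ± 0.13 for Pla2g15, all with the same adjusted p. DESeq2 called 5 members higher (Asah1, Atp6v1a, Cd68, Galc and Grn) and 0 lower, where it called 0.96% of all genes higher and 9.99% lower. When the edgeR test was limited to genes with a mean of at least 100 RPM, a limit chosen after the data were seen, Cd68 (adjusted p 0.0327) and Grn (adjusted p 0.0420) passed, with 1.54% of these genes higher and 0.0669% lower. At a limit of at least 10 RPM, also added later, 0 members passed (0.0474% of genes higher). The calls for these genes changed with the tool and with the filter on low genes.

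A list of 64 further lysosomal genes, 59 of them with at least 10 RPM, was tested in the same way. By edgeR 0 of 60 tested passed for Cst7, and at an unadjusted p under 0.05, 6 were higher (1.01% of all genes) and 2 lower (12.2%). By estimate the highest were Gpnmb at 1.73 ± 3.71 (log2, SE), a membrane glycoprotein, Cd63 at 0.88 ± 0.21, a tetraspanin of late endosomes, and Plbd2 at 0.66 ± 0.21. Gpnmb had a mean of 5.17 RPM, under the limit of 10 RPM, so its estimates here and below rest on a low level. The lowest were Laptm4b at -1.20 ± 1.34, Ids, the iduronate sulfatase, at -0.81 ± 0.45, and Mitf, a relative of Tfeb, at -0.79 ± 0.83. DESeq2 called 3 of the list higher (0.96% of all genes) and 0 lower (9.99%). For Apoe knockout 0 of 60 passed by edgeR, with 3 higher (3.71% of all genes) and 11 lower (3.9%) at an unadjusted p under 0.05. The 11 became 1 when any 1 of the 4 groups with the transgene was left out, and 10 without either of the others. DESeq2 called 2 higher (2.77% of all genes) and 3 lower (2.43%) for knockout, and 1 higher each for the transgene (0.842%) and for hippocampus (0.528%). The lowest knockout estimates were Sgsh at -1.06 ± 0.35, Sumf1, the gene of the enzyme that activates sulfatases, at -0.81 ± 0.27, and Ids at -0.63 ± 0.16. The highest were Gpnmb, under 10 RPM on average, at 7.89 ± 2.95, Laptm4b at 0.76 ± 0.17 and Scpep1 at 0.49 ± 0.25. For the transgene 0 of 60 passed by edgeR, with 5 higher (2.09% of all genes) and 1 lower (2.36%) at an unadjusted p under 0.05. The highest estimates were Galns at 0.94 ± 0.31, Mitf at 0.82 ± 0.20 and Cd63 at 0.74 ± 0.29. The lowest were Gpnmb at -3.22 ± 3.77, Cd164 at -0.53 ± 0.18 and Tmem175 at -0.36 ± 0.24. For hippocampus 0 of 60 passed by edgeR, with 1 higher (1.92% of all genes) and 1 lower (1.23%) at an unadjusted p under 0.05. The highest estimates were Gpnmb, again at its low level, at 7.97 ± 4.18, Sumf1 at 0.74 ± 0.33 and Hgsnat at 0.64 ± 0.39. The lowest were Galns at -0.89 ± 0.31, Gnptab at -0.74 ± 0.47 and Cd63 at -0.42 ± 0.29.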

How the data were processed

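Single cells were sequenced by modified SmartSeq2. The authors aligned reads with STAR 2.5.2 to mm10 and counted them with featureCounts 1.5.1, per the submitters' processing notes, which also name Seurat 2.3.1. The deposited table holds raw counts per gene and cell, without molecular identifiers. Of 1878 cells with counts, 1713 whose depth in the labels equals the table's were used, and the others, which have none, entered an alternative. Counts were summed by group or by group and Cst7 state and divided by the summed reads (RPM). Genes with a mean of at least 10 RPM were compared, and log2 ratios were taken after adding 0.5 RPM. Tests used edgeR 4.0.16 (quasi-likelihood, TMM, filterByExpr, Benjamini-Hochberg) in R 4.3.3, tested on simulated data, and DESeq2 1.42.0 as an alternative. Other work used Python 3.11.15, pandas 2.3.3 and SciPy 1.17.1. Exonic lengths and overlaps came from GENCODE on GRCm38 and promoters from RefSeq. The labels name no animals, so the p-values measure the spread between summed groups. The Cst7 states are paired within a group by construction. The members and lists were chosen with earlier results of these data known. Named genes were all members, Cst7, Apoe, defining markers and, of 64 further lysosomal genes, the 3 highest and 3 lowest by estimate. The overlapping genes were named after values were seen. Alternatives changed scaling, filters, thresholds, thinning, cell weights, lanes, plates and groups.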

Additional observations from a re-analysis of the deposited data

Results flagged for a closer look

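Hexa went in opposite directions with the transgene in the cortex with and without Apoe. Its level was 1734 RPM in APP/PS1 against 1218 RPM in C57BL/6, a ratio of 1.42, and 1068 RPM in APP/PS1-ApoeKO against 1330 RPM in C57BL/6-ApoeKO, a ratio of 0.803. The titled plates did not overlap in either pair, at 1556 to 1892 against 1092 to 1357 RPM and at 1061 to 1076 against 1217 to 1411 RPM. Both ratios stayed within the 1.5-fold limit, so Hexa was called in neither pair, and APP/PS1-ApoeKO cortex had only 2 titled plates. The difference between the pairs was not tested, titled plates are technical parts of 1 sample, and in both pairs the transgene cannot be told apart from the sequencing lanes.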

How the results depend on the processing

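Each group is 1 sample, so no alternative replaces replicate animals. The lower Arsb level in knockout groups was called in 14 of 14, 15 of 15 and 16 of 17 alternatives (APP/PS1 cortex, then hippocampus, then C57BL/6), the exception being cells with Cst7 reads alone. Its adjusted p for knockout ranged from 3.88e-12 (DESeq2) to 0.815. Members called in the Cst7 split were 0 in the main fit, 5 by DESeq2, 2 among genes of at least 100 RPM (added after the data were seen) and 0 with no replicate block, where 79 genes were called in all. By DESeq2 4 members were called for Apoe knockout and 1 for the transgene. Leaving out each group in turn, done with edgeR only, gave 0 members called in each test. In the fits of the group sums it also gave 0 calls over all genes, so it cannot show whether the results of the members are stable. TMM scaling gave a member median of -0.32 (knockout, APP/PS1 cortex), -0.028 (transgene, ApoeKO) and 0.26 (hippocampus, APP/PS1-ApoeKO), while the all-gene medians moved to -0.06, -0.03 and 0.07. It called 2 members for knockout in hippocampus, 5 for the transgene with Apoe and 1 for hippocampus in APP/PS1-ApoeKO. Cells with Cst7 alone gave medians of -0.24 (knockout, hippocampus) and 0.47 (transgene with Apoe), and calls of 10, 7 and 1 for knockout in APP/PS1 cortex, hippocampus and C57BL/6 cortex, 6 for the transgene with Apoe and 3 for hippocampus in APP/PS1-ApoeKO. These knockout pairs held only 25 against 81, 38 against 35 and 39 against 8 cells, split over titled plates. The mean over cells called 1 for knockout in C57BL/6 and 1 for hippocampus in each line. One lane called 4 for knockout in C57BL/6 (the other 3) and one called 2 for hippocampus in APP/PS1 (the other 0). The further lane gave a median of -0.062 and 1 call for the transgene in ApoeKO. Thinning gave Cst7 medians of -0.25 in C57BL/6 cortex and 0.28 in APP/PS1-ApoeKO cortex. Leaving out 1 titled plate gave 4 to 8, 1 to 4 and 2 to 3 calls for knockout in APP/PS1 cortex, hippocampus and C57BL/6, 2 to 5 and 2 to 7 for the transgene with and without Apoe, and 0 to 0 and 0 to 3 for hippocampus. The medians ranged from -0.16 to 0.0044, -0.07 to 0.05, -0.05 to 0.07, 0.18 to 0.31, -0.01 to 0.12, -0.03 to 0.02 and 0.04 to 0.16 in that order. Of these plate alternatives, those with 8, 7 and, for hippocampus, 3 calls had 1 titled plate of APP/PS1-ApoeKO cortex left. For the comparisons of 1 sum with 1 sum, the share of all genes called was computed in the main setting only. The counts of members called in their alternatives therefore have no such share to be set against. The cause was not tested for any of these changes.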
